A study of Homo sapiens with 22 samples.

Results

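Genes that the EWS-FLI1 fusion is known to switch on in Ewing sarcoma were followed here through 18 lists of chromatin peaks. The set holds 10 named genes, NR0B1, NKX2-2, CCND1, PRKCB, LIPI, NPY1R, NPY5R, STEAP1, IL1RAP and KDSR, of 19974 protein-coding genes on chromosomes 1 to 22 and X. They are named as core activated targets, and the rule that lists them uses no value of these peak lists. They were, however, chosen with earlier results of these data known. For each gene, peaks over the gene or within 1 kb of it were collected. HOXD13 peaks and H3K27ac peaks away from gene boundaries, inside genes included, were collected within 100 kb. All 10 genes were found in the annotation, and all 10 carried H3K4me3 in all 4 H3K4me3 libraries, as did 66.7% of protein-coding genes.

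Ewing sarcoma is a tumour of bone and soft tissue in which a fusion of EWSR1 with an ETS family gene, most often FLI1, makes an aberrant transcription factor. EWS-FLI1 binds single GGAA sites, as other ETS factors do, and also tandem GGAA repeats, which it can turn into enhancers that act on genes at a distance. H3K4me3 is found at promoters, H3K27ac at active promoters and enhancers, H3K4me1 mainly at enhancers, and H3K27me3 in chromatin held by Polycomb repressors. HOXD13 is a homeobox factor of posterior and limb development that is highly expressed in this tumour.

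The study profiled A673 and CHLA10, both established Ewing sarcoma lines that carry EWS-FLI1, by CUT&RUN, in which an antibody guides a nuclease that releases the bound chromatin for sequencing. Of 22 libraries, 16 were made against 4 histone marks, with 2 per mark and line, from cells labelled shNS, which the labels do not spell out. A further 2 libraries, 1 per line, were made against HOXD13 from cells whose label names the line alone, and the 4 IgG libraries were not analysed here. No treatment is given for any group, and nothing says that replicates are separate cultures, so the spread between them may be technical. Each line stands for a single tumour, and a difference between A673 and CHLA10 is one between these lines.

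The files give peaks, not read counts, so the depth behind a peak is unknown. Each peak has the authors' fold enrichment over the caller's background and their −log10 q value, and both are the peak's own values. The lists differ in length, and the H3K4me1 lists of CHLA10 covered 9.63 and 11.3 Mb against 74.5 and 51.6 Mb in A673. The strength of a peak is therefore also given as its percentile, the rank of its −log10 q within its own list from 0 (weakest) to 100 (strongest). Replicates repeated each other unevenly: 20.5% to 71.9% of the H3K27ac peaks of a library recurred in the other library of the line, against 83.3% to 90.7% for H3K4me3. Between 2 and 2 libraries the smallest exact two-sided permutation p is 0.33, so no p-values are given, and a difference is stated only where both libraries of a line lie on the same side of both libraries of the other. As a check of the cell type label, H3K4me3 lay at 6 of 6 Ewing sarcoma markers in all 4 libraries (66.7% of all genes), of which NR0B1 and NKX2-2 belong to the 10 genes. It lay in all 4 libraries at 0 of 4 haematopoietic, 0 of 4 myogenic, 1 of 4 endothelial and 2 of 4 epithelial markers. A mark at a gene is not a measurement of its RNA.

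Promoter sequence was matched for 9 of the 10 genes, in 12 windows from RefSeq (GRCh38.p14) that run from 250 bases before an annotated start to 50 bases after it. The 250 bases before the outermost start are shown for 5 genes, picked after their values were seen because the results that follow refer to their starts. H3K27me3 lay within 1 kb of the NKX2-2 start in CHLA10, and the PRKCB start had the larger H3K4me3 enrichment in A673. H3K27ac lay within 1 kb of the STEAP1 and KDSR starts in CHLA10 alone, and H3K4me3 covered NR0B1 along nearly its whole length. Capitals mark GGAA and its reverse complement TTCC, the core that ETS factors bind.
NR0B1 (chrX:30309391-30309640, minus strand): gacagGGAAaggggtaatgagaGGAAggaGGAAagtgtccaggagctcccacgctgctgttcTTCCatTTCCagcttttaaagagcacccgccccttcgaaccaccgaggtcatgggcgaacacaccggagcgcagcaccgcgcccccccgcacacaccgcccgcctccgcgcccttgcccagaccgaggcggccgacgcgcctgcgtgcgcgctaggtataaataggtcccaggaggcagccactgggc
NKX2-2 (chr20:21522690-21522939, minus strand): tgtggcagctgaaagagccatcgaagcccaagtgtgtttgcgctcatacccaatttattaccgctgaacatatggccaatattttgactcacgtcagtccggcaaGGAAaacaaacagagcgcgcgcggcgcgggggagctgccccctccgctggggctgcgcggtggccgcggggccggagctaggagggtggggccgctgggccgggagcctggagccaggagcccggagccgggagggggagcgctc
PRKCB (chr16:23835733-23835982, plus strand): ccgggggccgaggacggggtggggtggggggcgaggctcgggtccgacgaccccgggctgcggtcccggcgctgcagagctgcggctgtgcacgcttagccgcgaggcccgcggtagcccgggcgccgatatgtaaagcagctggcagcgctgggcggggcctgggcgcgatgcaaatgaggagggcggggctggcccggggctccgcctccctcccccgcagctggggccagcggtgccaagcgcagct
STEAP1 (chr7:90154219-90154468, plus strand): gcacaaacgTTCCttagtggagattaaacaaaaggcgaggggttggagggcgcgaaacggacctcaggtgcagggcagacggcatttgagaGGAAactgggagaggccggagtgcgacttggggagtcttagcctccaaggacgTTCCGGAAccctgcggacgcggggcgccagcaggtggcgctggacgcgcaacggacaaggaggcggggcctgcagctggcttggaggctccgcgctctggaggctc
KDSR (chr18:63367207-63367456, minus strand): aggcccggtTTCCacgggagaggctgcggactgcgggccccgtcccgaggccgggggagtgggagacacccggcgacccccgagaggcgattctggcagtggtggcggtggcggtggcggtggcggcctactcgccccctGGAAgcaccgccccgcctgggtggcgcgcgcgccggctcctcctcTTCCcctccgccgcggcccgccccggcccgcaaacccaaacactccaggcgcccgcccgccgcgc

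On both strands these 250 bases held 5 GGAA cores in NR0B1, 1 in NKX2-2, 0 in PRKCB, 4 in STEAP1 and 3 in KDSR. Over the 12 full windows of 300 bases the count ran from 0 to 7, highest at NPY1R, with a median of 3. The median over all 22156 windows of protein-coding genes was also 3, and 95.1% of them held at least 1 GGAA. The tandem GGAAGGAA, searched on both strands, was in 0 of the 12 windows and in 3.68% of all windows. This says only that those letters are not in these windows. No sequence of distal regions or HOXD13 peaks was searched.

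H3K4me3 was found at every gene of the set in all 4 libraries, often over several kilobases. The median length under H3K4me3 peaks over the gene and 1 kb on each side, as the mean of both libraries, was 5.98 kb in A673 and 4.84 kb in CHLA10. Over the 13323 protein-coding genes marked in all 4 libraries the medians were 2.46 and 2.38 kb. In 7 of the 10 genes (NR0B1, NKX2-2, LIPI, NPY1R, NPY5R, STEAP1 and IL1RAP) both A673 libraries had more length under H3K4me3 than both CHLA10 libraries, against 32.5% of all genes marked in the 4 libraries. PRKCB was the 1 gene with more length in both CHLA10 libraries, against 29.3% of all such genes, and CCND1 and KDSR overlapped between lines. The PRKCB peak at the start was itself longer in A673, at 4.118 and 4.431 kb against 3.07 and 3.195 kb in CHLA10. The extra CHLA10 length lay in short H3K4me3 peaks further inside the gene. The ratio of mean length, A673 over CHLA10, ran from 0.861 at PRKCB to 4.85 at NKX2-2, with a median of 1.2 over the 10 genes and 1.01 over all. Rank separated some other genes than length did. The strongest H3K4me3 peak ranked higher in both A673 libraries for 3 genes (NKX2-2, PRKCB and IL1RAP; 27.6% of all genes) and higher in both CHLA10 libraries for 4 (NR0B1, CCND1, NPY1R and KDSR; 44.8%).

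**Figure D1:**
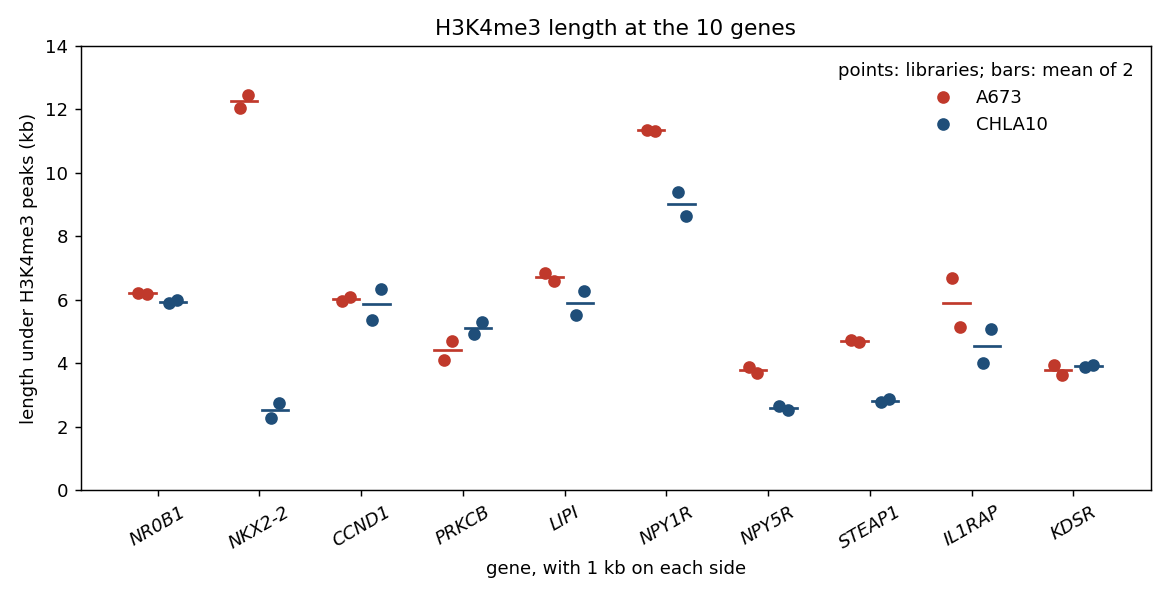
Length under H3K4me3 peaks (kb, vertical axis) over each of the 10 genes and 1 kb on each side (horizontal axis), with a point per library and a bar for the mean of the 2 libraries of a line. NKX2-2 stands apart, with 12.0 and 12.5 kb in A673 and 2.29 and 2.75 kb in CHLA10, while CCND1 and KDSR overlap between the lines.

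**Figure D2:**
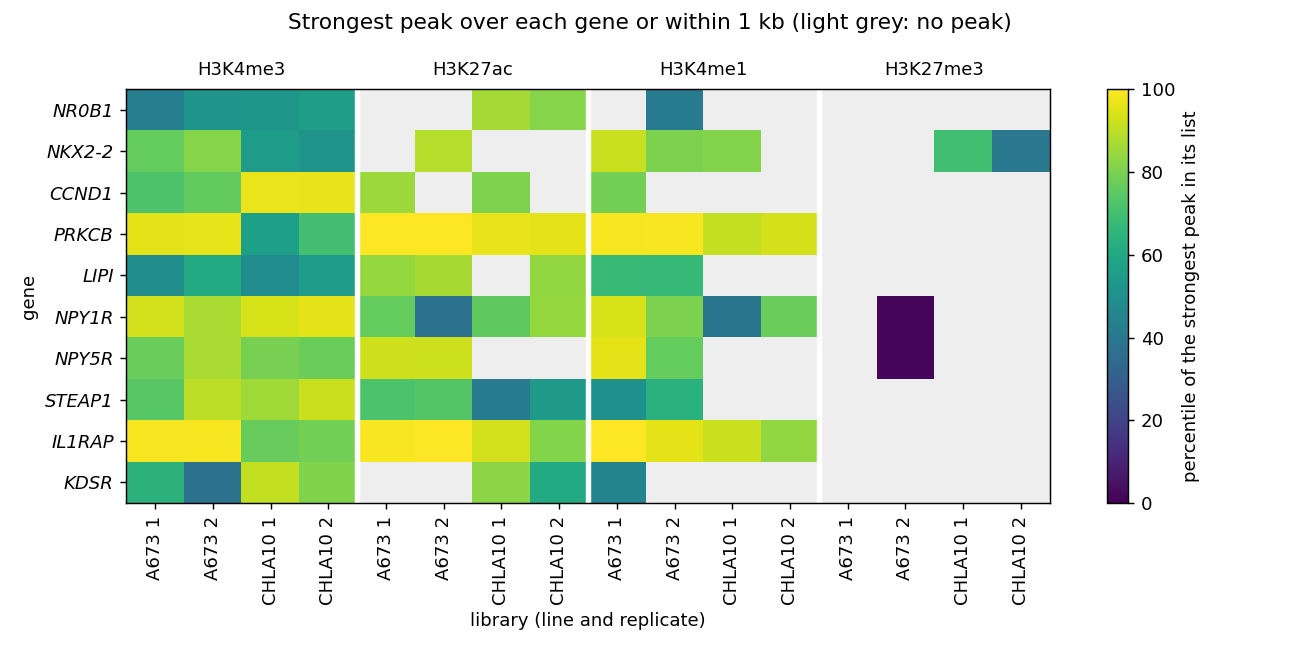
Percentile of the strongest peak over each gene or within 1 kb of it (colour, 0 to 100) in each of the 16 histone libraries (columns) for the 10 genes (rows), with light grey where a library has no peak. H3K4me3 fills all 4 columns for every gene, H3K27ac and H3K4me1 both fill their 4 columns at PRKCB, NPY1R and IL1RAP, and H3K27me3 is present at 3 genes.

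Among the transcription factor genes, NKX2-2 had the largest difference between the lines. NKX2-2 (chr20:21511017-21522689, minus strand) encodes a homeodomain factor of neural and endocrine development whose protein is used as a marker of Ewing sarcoma. H3K4me3 covered 12.0 and 12.5 kb in the A673 libraries, against 2.29 and 2.75 kb in CHLA10. At the outermost start the peak had a fold of 59.4 and 60.5 in A673 and of 19.5 and 16.6 in CHLA10. The A673 libraries also held another domain, 7.67 and 7.47 kb long with a fold of 43.0 and 55.6, centred 9.24 and 9.06 kb into the gene. It spanned the other annotated start, at position 21512960. In CHLA10 the same stretch held 1 short peak of 0.258 kb, in replicate 2 alone.

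H3K27me3 also lay at or beside the start of NKX2-2 in CHLA10, across it in replicate 2 alone. Replicate 1 had a broad peak of 4.13 kb (fold 4.13) just before the start and another of 2.54 kb (fold 3.71) after it. Replicate 2 had a single peak of 5.85 kb (fold 3.87) that crossed the start. Neither A673 library had H3K27me3 over NKX2-2 or within 1 kb. A peak of A673 replicate 1 (percentile 60.5) lay upstream of the start and ended just outside that window. It lay within the upstream stretch under H3K27me3 in both CHLA10 libraries. Within 1 kb, NKX2-2 was thus the 1 gene of the set with H3K27me3 in both CHLA10 libraries and neither A673 library. This pattern was seen at 3.61% of all genes. The CHLA10 peaks ranked at percentile 69.5 and 40.2 of their lists, and with the upper 50% of each list NKX2-2 no longer counted.

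H3K27ac over NKX2-2 was found in A673 alone. It was present in replicate 2, in 2 peaks of 0.825 and 0.297 kb, and absent from the list of replicate 1. On the start side of the gene, 3 regions held H3K27ac in both A673 libraries and in neither CHLA10 library. They lay 26.5, 31.6 and 52.5 kb outside the gene. The region at 31.6 kb had a fold of 13.2 and 5.71 and lay under H3K4me1 in both A673 libraries. The region at 52.5 kb had a fold of 12.7 and 12.3. No H3K27ac region of both CHLA10 libraries lay within 100 kb, and neither did a HOXD13 peak of either line.

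**Figure D3:**
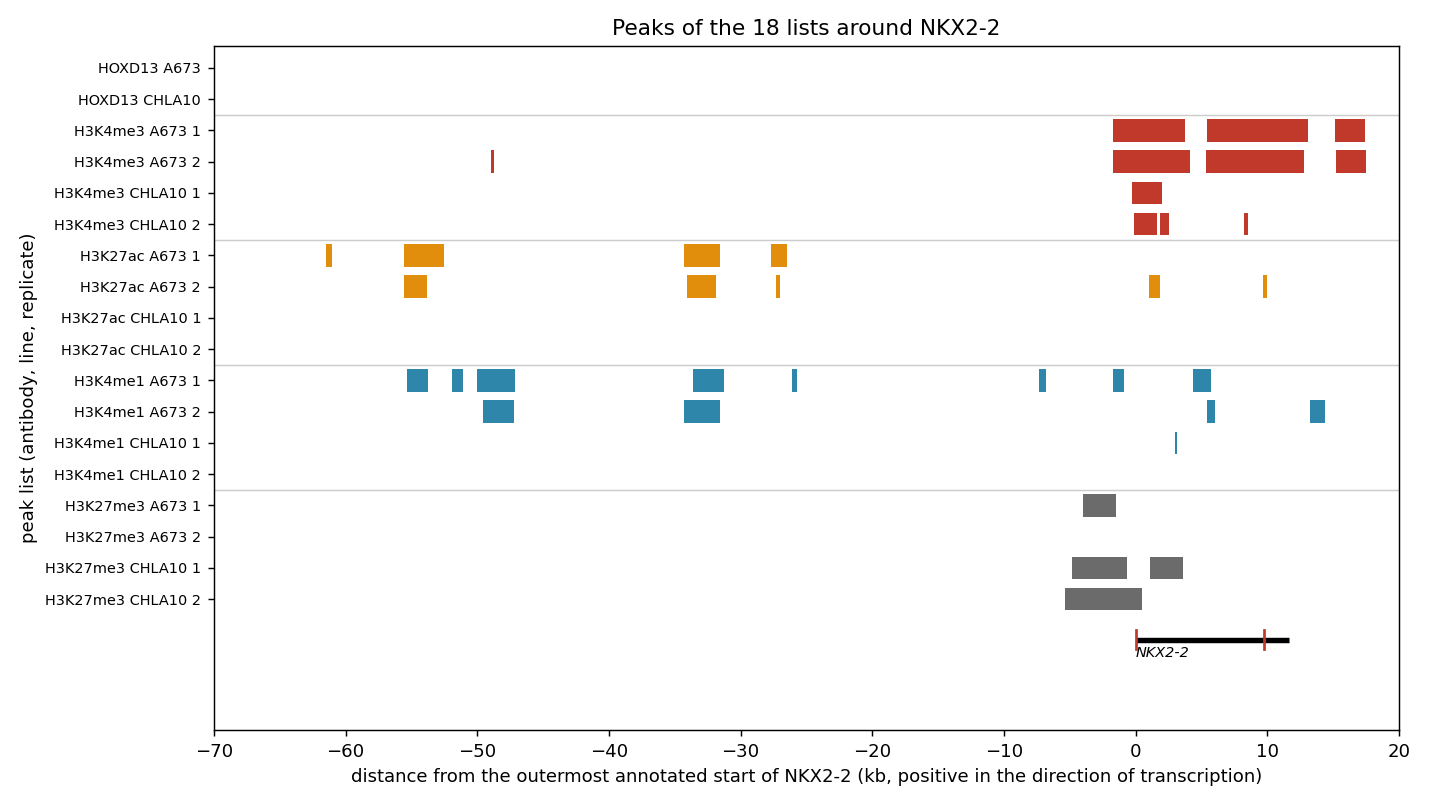
Peaks of the 18 lists (rows) around NKX2-2 by distance from its outermost annotated start (kb, positive in the direction of transcription), with the gene as a black bar and its annotated starts as red ticks; peaks too short to see were widened to a fixed minimum. The A673 rows show 3 H3K4me3 blocks and 3 upstream H3K27ac regions. The CHLA10 rows show a short H3K4me3 block at the start and H3K27me3 at or beside it. A673 replicate 1 has an H3K27me3 peak upstream of the start.

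NR0B1 (chrX:30304206-30309390, minus strand) encodes DAX1, an orphan nuclear receptor that acts mostly as a co-repressor and that Ewing sarcoma cells need for growth. It was the shortest gene of the set, 5.18 kb, and its H3K4me3 peak was as long as the gene. The covered length was 6.23 and 6.19 kb in A673 and 5.90 and 5.98 kb in CHLA10, which is 86.7%, 86.1%, 82.1% and 83.2% of the gene with its flanks. The fold was 16.5 and 25.0 in A673 and 15.8 and 16.1 in CHLA10, so both A673 values were higher, replicate 2 by more than replicate 1. The percentile of the same peak went the other way, at 43.3 and 51.6 in A673 and at 53.0 and 56.2 in CHLA10. H3K27ac touched NR0B1 in CHLA10 alone, with a fold of 8.78 and 7.88, and it did so past the 3′ end of the gene, 6.30 and 6.10 kb from the start. Within 100 kb NR0B1 had 7 distal H3K27ac regions, none of them in both libraries of a line, and no HOXD13 peak.

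CCND1 and PRKCB act in the cell cycle and in signalling. CCND1 (chr11:69641156-69654474) encodes cyclin D1, which activates CDK4 and CDK6 in the G1 phase. The promoter table has no entry for it, so distances are given from the gene boundary. Its H3K4me3 peak ran across the lower-coordinate boundary and was 8.15 and 8.07 kb long in A673 and 7.38 and 8.31 kb in CHLA10. The fold was 42.9 and 46.4 in A673 and 44.7 and 38.6 in CHLA10, with no separation of the lines. Within the lists the same peak ranked at 72.1 and 76.0 in A673 and at 97.2 and 96.7 in CHLA10. H3K27ac over CCND1 was present in replicate 1 of each line and absent from replicate 2 of each. The peaks lay at different places, across the lower-coordinate boundary in CHLA10 and inside the gene, beyond 5.77 kb from that boundary, in A673.

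The strongest acetylation near CCND1 lay outside it. A region of 2.28 kb, 19.2 kb outside the gene, held H3K27ac in all 4 libraries, with a fold of 13.5 and 6.31 in A673 and of 18.2 and 21.1 in CHLA10. Its percentiles were 99.9 and 97.1 in A673 and 99.8 and 100 in CHLA10, at or near the top of each list. Another 2 regions on the same side, 25.3 and 41.2 kb outside the gene, held H3K27ac in both CHLA10 libraries alone. Of the 21 distal regions within 100 kb of CCND1, 16 were found in 1 A673 library only. A673 had a HOXD13 peak 51.0 kb outside the other boundary (fold 21.6, −log10 q 41.6), within H3K27me3 in all 4 libraries and H3K4me1 in A673 replicate 1. This peak was nearer to a boundary of FGF19 than to CCND1.

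PRKCB (chr16:23835983-24220611, plus strand) encodes protein kinase C beta, a calcium- and lipid-dependent serine/threonine kinase. It is the longest gene of the set, 384.6 kb, and it held the most H3K27ac in all 4 libraries and the most H3K4me1 in both A673 libraries. At the start, H3K4me3 had a fold of 96.3 and 89.1 in A673 and of 14.9 and 18.4 in CHLA10. The percentiles were 96.1 and 96.1 against 56.6 and 70.2, so the lines did not overlap. H3K27ac covered 39.9 and 28.5 kb of the gene in A673 and 17.4 and 13.4 kb in CHLA10. H3K4me1 covered 49.6 and 35.5 kb in A673 and 3.0 and 1.43 kb in CHLA10, a ratio of 19.2 in mean length. The median ratio for H3K4me1 over all genes marked in the 4 libraries was 4.69, and H3K4me1 coverage was longer in both A673 libraries for 79.0% of them.

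The 3 PRKCB regions with H3K27ac in all 4 libraries lay toward its start. A region of 12.6 kb centred 68.6 kb into the gene held H3K27ac in all 4 libraries, with a fold of 20.3 and 16.8 in A673 and of 11.2 and 10.8 in CHLA10. A region of 10.6 kb centred at 24.0 kb had a fold of 16.4, 11.1, 7.76 and 7.0 in the same order, and one of 4.73 kb at 115.2 kb had a fold of 11.6, 14.6, 5.41 and 7.0. In each of the 3 regions both A673 fold values were above both CHLA10 fold values. The lengths are those of the merged peaks of the 4 libraries. The 10.6 kb was a single peak of A673 replicate 1. The other libraries held shorter peaks within it, 2.03 kb in A673 replicate 2, 2.23 and 0.716 kb in CHLA10 replicate 1 and 0.896 kb in CHLA10 replicate 2. Short H3K4me3 peaks lay far from the annotated start, at about 65 kb in both CHLA10 libraries (fold 6.83 and 8.76) and in A673 replicate 2 (fold 5.17), and at 21.7 kb in both CHLA10 libraries (fold 4.59 and 4.04).

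HOXD13 in A673 had 4 peaks inside PRKCB, more than in any other gene of the set, and CHLA10 had none. PRKCB is also the longest gene of the set, and this count was not scaled to gene length. The peak at 65.4 kb (fold 15.5, −log10 q 25.1) lay in H3K27ac in all 4 libraries, in the 12.6-kb region, and under the short H3K4me3 peaks of both CHLA10 libraries and of A673 replicate 2. The peak at 21.9 kb (fold 7.04, −log10 q 16.4) lay in H3K27ac and H3K4me1 of A673 replicate 1. It also lay in H3K27ac of both CHLA10 libraries, with H3K4me1 of replicate 1 and H3K4me3 of replicate 2. The peak with the highest −log10 q, 33.2, was at 45.8 kb with a fold of 19.0 and lay under no mark of either line. The last, at 315.7 kb, also lay under no mark.

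**Figure D4:**
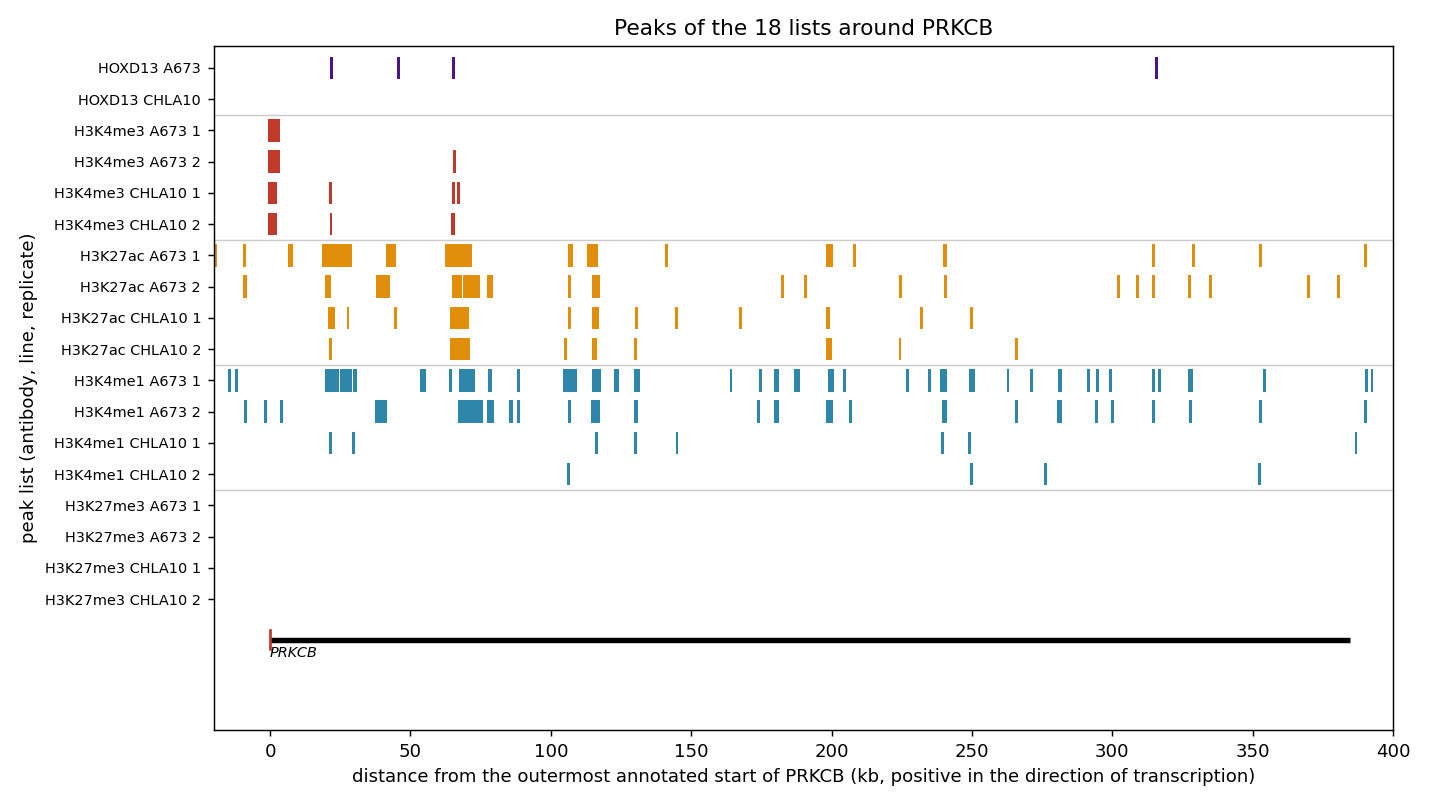
Peaks of the 18 lists (rows) along PRKCB by distance from its annotated start (kb, positive in the direction of transcription), with the gene as a black bar and its start as a red tick; peaks too short to see were widened to a fixed minimum. H3K27ac and H3K4me1 are denser in the A673 rows, the region near 65 kb has H3K27ac in all 4 libraries, and the 4 HOXD13 peaks are in the A673 row.

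The receptor genes of the set are NPY1R, NPY5R and IL1RAP. NPY1R (chr4:163323962-163344689, minus strand) and NPY5R (chr4:163343892-163352403, plus strand) encode G protein-coupled receptors for neuropeptide Y, a peptide that Ewing sarcoma cells can also secrete. The genes overlap and point away from each other, so 1 peak can count for both. The promoter table gives NPY1R a single start, at position 163332596 inside the annotated gene. Over that NPY1R start H3K4me3 ran for 6.79 and 7.62 kb in A673 and for 6.65 and 5.88 kb in CHLA10. Its fold was 63.4 and 18.1 in A673 and 46.8 and 44.8 in CHLA10, so the A673 replicates differed more than the lines. Over the NPY5R start the peak was 5.46 and 4.61 kb long in A673 with a fold of 51.9 and 68.5, against 2.75 and 2.75 kb with a fold of 29.9 and 29.6 in CHLA10. There the lines did not overlap in length or fold. The percentiles of this peak did overlap, at 77.0 and 87.4 in A673 and at 79.6 and 77.6 in CHLA10.

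Around the receptor pair, H3K27ac lay partly at shared and partly at different places in the 2 lines. In CHLA10 it covered the NPY1R start, in peaks of 1.68 and 1.55 kb with a fold of 6.96 and 7.37, and 2.61 and 2.80 kb of the gene in all. In A673 it covered 0.619 and 0.319 kb of NPY1R, more than 1 kb before that start. These A673 peaks overlapped the upstream ends of the CHLA10 peaks at the start. NPY5R had H3K27ac in both A673 libraries, across its 3′ end in replicate 1 (fold 10.6) and just past it in replicate 2 (fold 9.71). Neither CHLA10 library had it there, a pattern that 8.66% of all genes also had. A distal region 39.6 kb outside NPY5R held H3K27ac in A673 alone, at percentiles 99.5 and 99.7 (fold 9.49 and 9.86), and under H3K4me1 in both A673 libraries. Regions 83.6 and 95.6 kb outside NPY5R held it in CHLA10 alone. Another 3 distal regions within 100 kb of NPY5R held it in all 4 libraries, among them the one at the NPY1R start.

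The receptor pair shared 4 HOXD13 peaks in A673 and had none in CHLA10. The first lay 23.9 kb from the NPY5R start (fold 15.3, −log10 q 26.4) and overlapped H3K4me1 in 1 library of each line. The other 3 lay together at 60.3, 60.7 and 61.0 kb, with −log10 q of 5.38, 16.4 and 13.9. The peak at 60.3 kb was in H3K27ac of all 4 libraries, H3K4me1 of both A673 libraries and H3K4me3 of both CHLA10 libraries. The peak at 60.7 kb was in H3K27ac and H3K4me3 of both CHLA10 libraries and under no A673 mark. The peak at 61.0 kb was in H3K4me3 of CHLA10 replicate 1 and under no other mark. H3K27me3 at the pair was limited to 1 peak of A673 replicate 2, at percentile 1.76 of its list (fold 3.22).

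**Figure D5:**
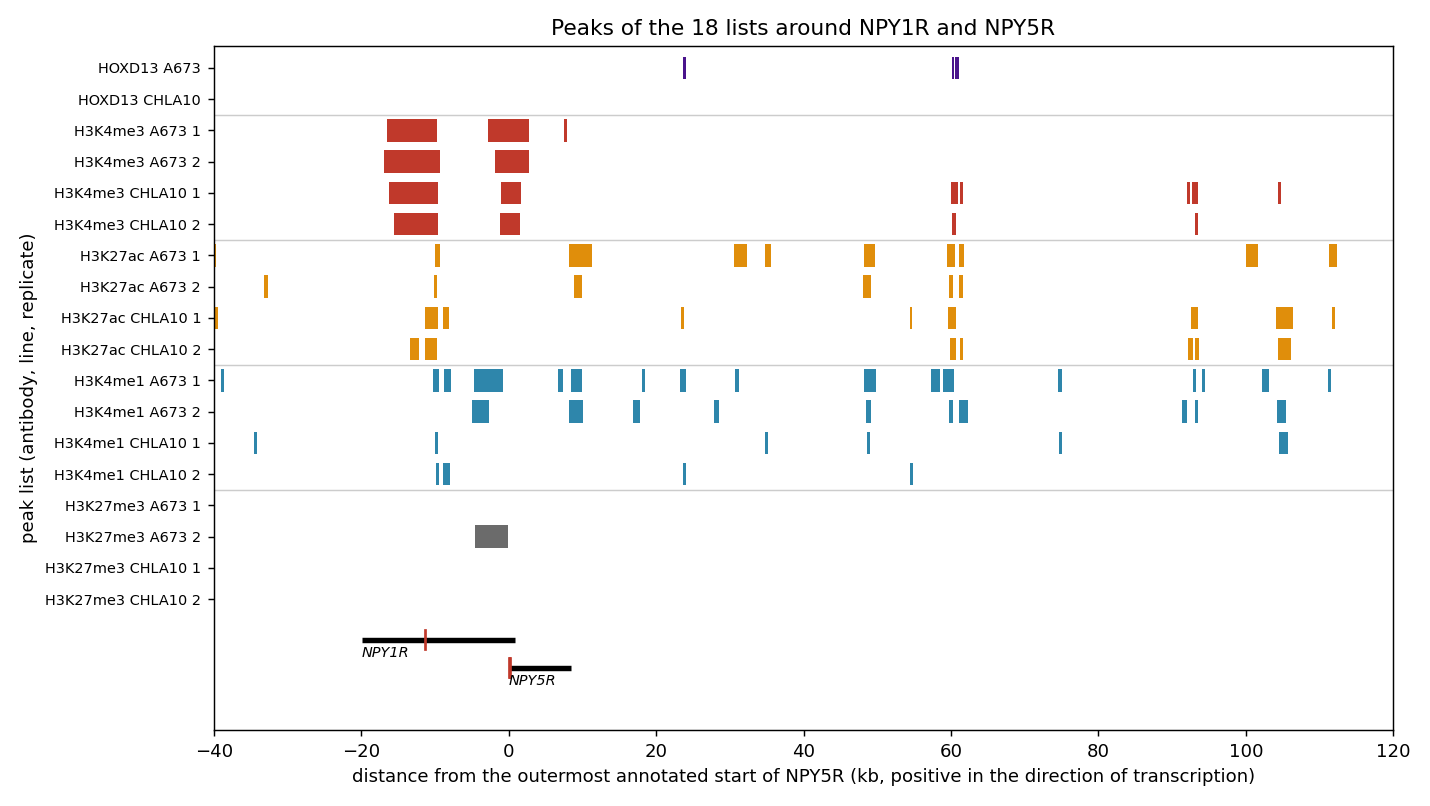
Peaks of the 18 lists (rows) around NPY1R and NPY5R by distance from the outermost annotated start of NPY5R (kb, positive in its direction of transcription), with the genes as black bars and their annotated starts as red ticks; peaks too short to see were widened to a fixed minimum. H3K4me3 marks both genes in all 4 libraries, and the 3 neighbouring HOXD13 peaks of A673 sit near 60 kb. Only the peak at 60.3 kb overlaps H3K27ac in all 4 libraries.

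IL1RAP (chr3:190514085-190659750, plus strand) encodes the shared co-receptor of the interleukin-1, interleukin-33 and interleukin-36 receptors. As at PRKCB, more of the gene lay under H3K27ac and H3K4me1 in both A673 libraries than in both CHLA10 libraries. H3K4me3 at the start had a fold of 99.5 and 96.8 in A673, the highest of the 10 genes, and of 30.6 and 28.9 in CHLA10. H3K27ac covered 15.2 and 7.34 kb of the gene in A673 and 3.52 and 3.59 kb in CHLA10. H3K4me1 covered 40.2 and 18.1 kb against 1.95 and 1.45 kb.

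Inside IL1RAP, a region of 3.08 kb centred 72.5 kb from the start held H3K27ac in all 4 libraries, with a fold of 16.4 and 15.5 in A673 and of 10.5 and 8.62 in CHLA10. A short H3K4me3 peak lay there in both CHLA10 libraries (fold 9.49 and 4.93) and in A673 replicate 1 (fold 6.43). Regions at 6.58 and 20.4 kb held H3K27ac in both A673 libraries alone, with a fold of 11.3 and 8.88 at the first and of 10.9 and 14.2 at the other. A673 had 3 HOXD13 peaks inside the gene. The peak at 18.9 kb (fold 4.95, −log10 q 4.12) lay in H3K27ac of both A673 libraries, the peak at 20.0 kb (fold 8.44, −log10 q 17.4) in that of replicate 1, and the peak at 52.4 kb (fold 15.2, −log10 q 36.0) in that of CHLA10 replicate 2. The peaks at 18.9 and 20.0 kb also overlapped H3K4me1 of A673 replicate 1.

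The last 3 genes encode a membrane protein and enzymes of lipid metabolism. STEAP1 (chr7:90154469-90164827, plus strand) encodes a membrane protein of the metalloreductase family that is studied as a surface antigen of tumours. H3K4me3 at its start was 4.88 and 4.67 kb long in A673 and 3.03 and 2.87 kb in CHLA10. The fold was 25.9 and 56.3 in A673 and 29.4 and 38.1 in CHLA10, with the CHLA10 values between those of the A673 replicates. H3K27ac was at the start itself in CHLA10 (fold 4.24 and 5.53) and 3.40 kb into the gene in A673 (fold 5.85 and 6.56). H3K4me1 accompanied the latter in both A673 libraries (fold 5.71 and 7.45) and had no peak over STEAP1 in CHLA10. No HOXD13 peak lay within 100 kb in either line.

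LIPI (chr21:14108812-14210955, minus strand) encodes a phospholipase that releases lysophosphatidic acid. It has 2 annotated starts, 14210955 and 14206949, and 1 H3K4me3 peak spanned both in every library. The peak was 6.37 and 6.41 kb long in A673 and 5.52 and 6.28 kb in CHLA10, with a low fold of 9.30 and 14.4 in A673 and of 11.1 and 12.1 in CHLA10. H3K27ac over LIPI was found in both A673 libraries and in CHLA10 replicate 2, but its peaks in the A673 replicates lay at different places. A673 had a HOXD13 peak 2.09 kb outside the start of LIPI (fold 20.6), with the highest −log10 q near any of the 10 genes, 50.0. It overlapped H3K27ac of A673 replicate 1 and under no other mark.

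KDSR (chr18:63327726-63367206, minus strand) encodes ketodihydrosphingosine reductase, an early enzyme of sphingolipid synthesis. H3K4me3 at its start had a fold of 47.5 and 10.6 in A673 and of 36.2 and 25.9 in CHLA10. H3K27ac over KDSR was found in CHLA10 alone, just before the start (fold 8.35 and 4.34) and 30.3 and 30.1 kb into the gene (fold 6.91 and 5.51). KDSR also had 7 of the CHLA10-only distal regions, more than any other gene of the set. The strongest lay 11.4 kb outside its start, with a fold of 13.4 and 11.8, and was nearer to a boundary of VPS4B. The region 88.5 kb outside the other end (fold 8.95 and 10.1) was nearest to a boundary of BCL2.

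KDSR was the 1 gene of the set with HOXD13 in both lines. The A673 peak lay 10.2 kb outside the gene on the start side (fold 6.15, −log10 q 8.07) and overlapped a CHLA10 peak (fold 3.74, −log10 q 12.4). A neighbouring CHLA10 peak had a fold of 3.85 and a −log10 q of 9.28. The A673 peak was in H3K27ac of both A673 libraries and of neither CHLA10 library. The CHLA10 peak that it overlapped met H3K27ac of both A673 libraries and of CHLA10 replicate 2. The neighbouring CHLA10 peak met that of A673 replicate 2 alone. The merged acetylated region around the A673 peak held H3K27ac in all 4 libraries, with a fold of 9.52 and 8.42 in A673 and of 6.03 and 3.79 in CHLA10.

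Counted over the set, H3K27ac lay over the gene or within 1 kb in both A673 libraries at 6 genes (38.7% of all genes) and in both CHLA10 libraries at 6 (35.1%). The genes were not the same. PRKCB, NPY1R, STEAP1 and IL1RAP were marked in all 4 libraries (22.6% of all genes), NPY5R in A673 alone, and NR0B1 and KDSR in CHLA10 alone (4.81%). Of the 4 genes marked throughout, PRKCB and IL1RAP had more length under H3K27ac in both A673 libraries (23.0% of all such genes) and NPY1R in both CHLA10 libraries (38.0%). Near starts the counts use the annotated starts of 9 members and of 15812 genes in all, and either gene boundary for CCND1 and the other genes without one. Within 1 kb of such a start, H3K27ac was in both A673 libraries at 0 of the 10 genes (6.25% of all) and in both CHLA10 libraries at 3, NPY1R, STEAP1 and KDSR (17.4%). These 3 had it in neither A673 library, as did 8.94% of all genes. Without A673 replicate 1, or without CHLA10 replicate 2, the genes marked in A673 alone numbered 2 in place of 1.

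H3K4me1 lay at 7 genes in both A673 libraries (43.3% of all genes) and at 3, PRKCB, NPY1R and IL1RAP, in both CHLA10 libraries (17.9%). These 3 had it in all 4 libraries, against 15.3% of all genes. LIPI, NPY5R and STEAP1 had it in A673 alone (16.3%), and 0 genes had it in CHLA10 alone (0.411%). H3K4me1 was within 1 kb of such a start in both libraries of a line at 0 of the 10 genes, in A673 (7.91% of all) and in CHLA10 (0.826%). With lists of equal peak number the A673-only genes numbered 1, and without A673 replicate 2 they were 5. H3K27me3 was absent from all 4 lists at 7 genes, against 72.2% of all genes, and in both A673 libraries at 0 (17.1%). Both CHLA10 libraries had it at NKX2-2 (15.5%). Without A673 replicate 1 the NPY receptor pair would count in A673.

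Around the 10 genes, H3K27ac formed 170 separate regions that lay within 100 kb of a member and over 2.5 kb from every protein-coding gene boundary. Of these, 91 were in 1 A673 library and 28 in 1 CHLA10 library. All 4 libraries shared 12 regions, 7.06% of the 170 against 2.60% of the 94813 such regions of the genome. A673 alone had 12 (7.06% against 4.33%) and CHLA10 alone 14 (8.24% against 8.62%). The median number of regions per gene was 15, against 10 over all genes. PRKCB had 48 and IL1RAP 34, and NR0B1 the fewest, 7. Regions inside genes are included: 30 of those of PRKCB and 10 of those of IL1RAP lay inside the gene. Some held an annotated start that lies inside its gene, as at NPY1R and LIPI. The window also grows with the length of the gene. Regions of all 4 libraries were near 6 genes (CCND1, PRKCB, NPY1R, NPY5R, IL1RAP and KDSR; 21.4% of all genes). A673-only regions were near 7 (all but NR0B1, CCND1 and KDSR; 37.2%) and CHLA10-only regions near 6 (CCND1, PRKCB, NPY1R, NPY5R, IL1RAP and KDSR; 39.0%). The counts within a single line changed when a library was left out. With 1 A673 library left out, the A673-only regions numbered 60 or 56, and with 1 CHLA10 library left out the CHLA10-only regions numbered 25 or 33. With the upper 50% of each list 5 regions of all 4 libraries were left, and with lists of equal peak number 7.

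HOXD13 had a peak within 100 kb of 7 genes in A673 (CCND1, PRKCB, LIPI, NPY1R, NPY5R, IL1RAP and KDSR; 38.8% of all genes) and of 1 in CHLA10 (KDSR; 11.6%). Over the gene or within 1 kb it was found at PRKCB and IL1RAP in A673 (12.2% of all) and at 0 genes in CHLA10 (3.8%). The A673 list has 7160 peaks and the CHLA10 list 2099, each from 1 library without a replicate check. The genes were near 14 different A673 peaks, 7 of them inside PRKCB or IL1RAP, and 2 CHLA10 peaks. Of the 14, 1 overlapped a CHLA10 peak, against 7.22% of all A673 HOXD13 peaks. H3K27ac of both A673 libraries overlapped 4 of the 14 (9.66% of all A673 HOXD13 peaks), and that of either library 7 (23.7%). H3K4me1 of both A673 libraries overlapped 1 (24.8%) and H3K27me3 of both 1 (2.5%), the peak near CCND1. H3K4me3 of both A673 libraries overlapped 0 (7.57%). With lists of equal peak number 6 A673 peaks were left, and within 10 kb of the genes 8. The HOXD13 libraries lack the shNS label of the mark libraries, so these overlaps join differently labelled cells.

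The wider list of 35 other genes that EWS-FLI1 activates had H3K4me3 in both A673 libraries at 33 (69.6% of all genes) and in both CHLA10 libraries at 33 (69.9%). CCK, a neuropeptide hormone gene, was marked in CHLA10 alone (2.4%). H3K27ac was at 20 of them in A673 (38.7%) and at 16 in CHLA10 (35.1%), with ADGRG2 and ABHD6 in A673 alone (8.66%). H3K27me3 was at 2 in A673 (17.1%), CCK and SOX6, and at 1 in CHLA10 (15.5%), STEAP2, each in 1 line only (5.1% of all genes for A673 and 3.61% for CHLA10). HOXD13 lay within 100 kb of 21 in A673 (38.8%) and of 9 in CHLA10 (11.6%), 8 of them in both, among them JAK1, KIT and XG. The share of all genes with HOXD13 in both lines, or in A673 alone, is not given here. In the families of the members, PRKCA, like PRKCB, had HOXD13 within 100 kb in A673 alone. Of 7 genes of the neuropeptide Y system, HOXD13 lay within 100 kb of the receptor pair alone, in A673 (38.8% of all genes). STEAP1B and STEAP2, unlike STEAP1, had H3K27me3 in CHLA10 alone (3.61%). Of 9 genes of the interleukin-1 receptor family, 7 had H3K27me3 in both A673 libraries (17.1% of all genes) and 6 in both CHLA10 libraries (15.5%). IL1RAP was the 1 gene of the family with none in any library (72.2%).

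By the percentile of the strongest peak over the 16 histone libraries, the gene most like PRKCB was GRK5, with a mean absolute difference of 2.21 percentile points. ETV6 was the most like IL1RAP (2.34), PTTG1IP the most like NPY5R (2.73), TRIM41 the most like KDSR (3.51) and CENPM the most like CCND1 (3.83). ZNF785 was nearest to STEAP1 (5.39), PRKX to NR0B1 (5.20), CRKL to NPY1R (5.58) and ODAD1 to LIPI (6.01). NKX2-2 had no neighbour as near: its closest, DOCK5, differed by 10.4 points.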

How the data were processed

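CUT&RUN peak lists of 18 libraries on the build hg38 were used. The submitters' processing notes name Bowtie2, MACS2, SEACR 1.2 and bedtools but give no roles. Peaks were called per sample. Per the file headers and peak names, H3K4me3, H3K27ac, H3K4me1 and HOXD13 were called as narrow peaks against IgG, and H3K27me3 as broad peaks without a control. The authors deposited a fold enrichment (a ratio over the caller's background) per peak. The authors also deposited −log10 p and −log10 q values, and no q-value is above 0.01. The score the authors deposited is the −log10 q multiplied by 10 and was not used. Gaps in the deposited peak numbers show that the lists kept 1.00% to 77.0% of the highest peak number, by a criterion not given in the sources used here.

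Genes, starts and promoter windows came from RefSeq (GRCh38.p14). A peak marked a gene where it overlapped the gene, or 1 kb beside it, by at least 1 bp. A gene was marked in a line when both libraries held a peak, and in that line alone when neither library of the other line did. Distances run from the outermost annotated start. H3K27ac peaks of the 4 libraries were merged into regions. The share of protein-coding genes called the same way is given beside the counts of genes. The named genes were the 10 members, the fixed lists, and for each member the most alike gene over 100 kb away. Members and lists were chosen with earlier results of these data known. The alternatives were the upper 50% of each list, lists of equal peak number, other windows and overlaps, and leaving out each library. Alternatives for the H3K4me3 length and for H3K27ac at HOXD13 peaks were chosen after seeing the data. Scripts ran in Python 3.11.15 with pandas 2.3.3 and were tested on simulated data. The planned sequence search under peaks was not run, since no genome sequence was used here.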

Additional observations from a re-analysis of the deposited data

How the results depend on the processing

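Of 179 alternative values for 26 results, 142 stayed within 1.5 times the reported value. No paired analysis was possible because the results come from no test. Where each library was left out in turn, H3K27ac counts were 7 to 7 in A673 and in CHLA10, 1 to 2 in A673 only and 2 to 2 in CHLA10 only. H3K4me1 counts were 8 to 9 in A673, 3 to 4 in CHLA10 and 3 to 5 in A673 only, and H3K27me3 counts were 0 to 2 in A673 and in A673 only. The genes with longer H3K4me3 in A673 were 7 to 8. Distal H3K27ac regions were 11 to 16 in all libraries, 13 to 60 in A673 only and 14 to 33 in CHLA10 only, and HOXD13 peaks with H3K27ac were 4 to 7.

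With peaks within 1 kb of a start, H3K27ac counts were 0 in A673, 3 in CHLA10 and 0 in A673 only, and H3K4me1 counts 0, 0 and 0. Within 10 kb, H3K27ac was restricted to A673 at 0 genes and to CHLA10 at 0, H3K4me1 was at 5 in CHLA10 and 1 in A673 only, and H3K27me3 at 0 in CHLA10 only. HOXD13 then had 3 genes and 8 peaks in A673 and 0 genes and 0 peaks in CHLA10. With the upper 50% of each list, H3K27me3 was at 0 genes in CHLA10 and 0 in CHLA10 only, 5 distal regions were in all libraries, and HOXD13 had 9 peaks in A673, 4 of them with H3K27ac, and 0 genes and 0 peaks in CHLA10. With lists of equal peak number, H3K4me1 was at 1 gene in A673 only, 7 distal regions were in all libraries, and HOXD13 had 6 peaks in A673. A window of 50 kb left 6 distal regions in CHLA10 only, and an overlap of 50% of the shorter peak left 0 shared HOXD13 peaks. Fewer peaks or a narrower window enter most of these, and the cause was not tested further. Without read counts, depth sets no stated limit here, and a missing peak is no proof of a missing mark.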
